A study of Coelastrella tenuitheca with 9 samples.

Results

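Transcripts of 75 genes whose product descriptions name transcription or chromatin proteins were examined in the green microalga Coelastrella tenuitheca, strain S93-3, grown with and without cadmium. They were chosen by words in the deposited product description (such as histone, transcription, SNF2, SET domain, mediator or zinc finger), out of 12605 genes of which 2457 carry any description. The choice used no expression value. By their descriptions, 53 are core histones and 22 are regulators, a word used here for every other member. The core histones comprise 23 genes described as H3, 9 as H4, 8 as H2A and 13 only as histone-fold-containing, and none is described as H2B. Among the regulators, 6 belong to histone modification, 3 to the SNF2 family of chromatin remodellers, and 13 to the transcription apparatus, DNA-binding factors, an HMG-type protein and others. No member was described as a Myb, bZIP or homeobox protein. Each description is the name of a similar protein in another organism, nearly always a fungus, so it records resemblance only, and the algal proteins themselves were not studied.

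All cultures were first grown for 5 days in continuous light on glucose (20 g/L) and then kept for 7 days without CdCl2 (Control), with 20 mg/L CdCl2 (Cd20) or with 50 mg/L CdCl2 (Cd50). Each group has 3 libraries of strand-specific, poly(A)-selected RNA, all made in batch 1, and the labels do not say whether they came from separate cultures. The p-values therefore measure the spread among these libraries, which may be technical. Total counts ran from 10457007 to 15456743 per library. On the first principal component, which held 60.6% of the variance, Control 1 (12.2) and Cd50 1 (-17.7) lay nearer to Cd20 (45.0 to 58.1) than the other control (-29.0 and -13.8) and Cd50 libraries (-51.3 and -52.7) did. Of 16 marker genes of a photosynthetic cell, the gene of the small chain of Rubisco carried most of the summed level and its change, at 2135.3 to 2267.7 CPM in Control, 1029.5 to 1131.3 in Cd20 and 1189.7 to 1444.9 in Cd50. The other 15, described as chlorophyll a-b binding, summed to 797.1 to 888.4, 714.2 to 868.5 and 839.5 to 882.9 CPM in these groups and went both ways. Of the 13 tested, 4 rose and 6 fell at 20 mg/L, and 4 rose and 4 fell at 50 mg/L (edgeR). In bulk RNA, fewer cells of a kind and less RNA per cell cannot be told apart.

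Core histones are the proteins around which nuclear DNA is wound. In animals, most of their genes lie in repeated clusters, lack introns and are read during DNA synthesis into mRNAs without a poly(A) tail, while replacement variants such as H2A.Z come from separate genes with introns and polyadenylated mRNAs. Regulators act on this packaging in several ways: acetyltransferases and deacetylases add and remove acetyl groups on histone tails, SNF2 ATPases move nucleosomes, and general factors such as TFIIB, TFIID and the mediator bring RNA polymerase II to promoters.

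Of the 53 core histone genes, 50 lay in 2 arrays, and together these 50 received 3.96% of the 58752 core histone counts. The remaining 96.0% came from 3 genes elsewhere in the genome. These were A01055, described as putative histone H2A F/Z family member HTZ1 (chromosome 11, 4047835 to 4048893), with 26402 counts, A04112, histone H3 (chromosome 1, 1087037 to 1088056), with 16481, and A07570, Histone H3.2 (chromosome 4, 4513606 to 4515000), with 13545. Coordinates follow the deposited table, and the sources used here name no assembly. By FPKM, a level per length, A01055 ranked 233 of all genes (mean of 9 libraries 568), A04112 rank 373 (372.7) and A07570 rank 510 (270.6).

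The array on chromosome 5 spans 708 kb (4088298 to 4796291) and holds 38 core histone genes, which shared 492 counts over all 9 libraries. The array on chromosome 15 spans 199 kb (2171996 to 2370510) and holds 12, which shared 1832. Fewer than 100 counts were assigned to 45 of the 50 array genes, fewer than 10 to 33, and none to 14, where a count of 0 allows up to 3 (counting error only). All 9 H4 genes of the genome table lie in the chromosome 5 array, and together they had 9 counts, with 4 of them at 0. The 21 array genes described as H3 had 250 counts, the 7 described as H2A had 358 and the 13 histone-fold genes had 1707. Most of the histone-fold counts came from A02902, A02943 and A02916 on chromosome 15, with 744, 420 and 357. On chromosome 5, 3 H2A genes had 258 counts and 9 histone-fold genes 139.

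**Figure D1:**
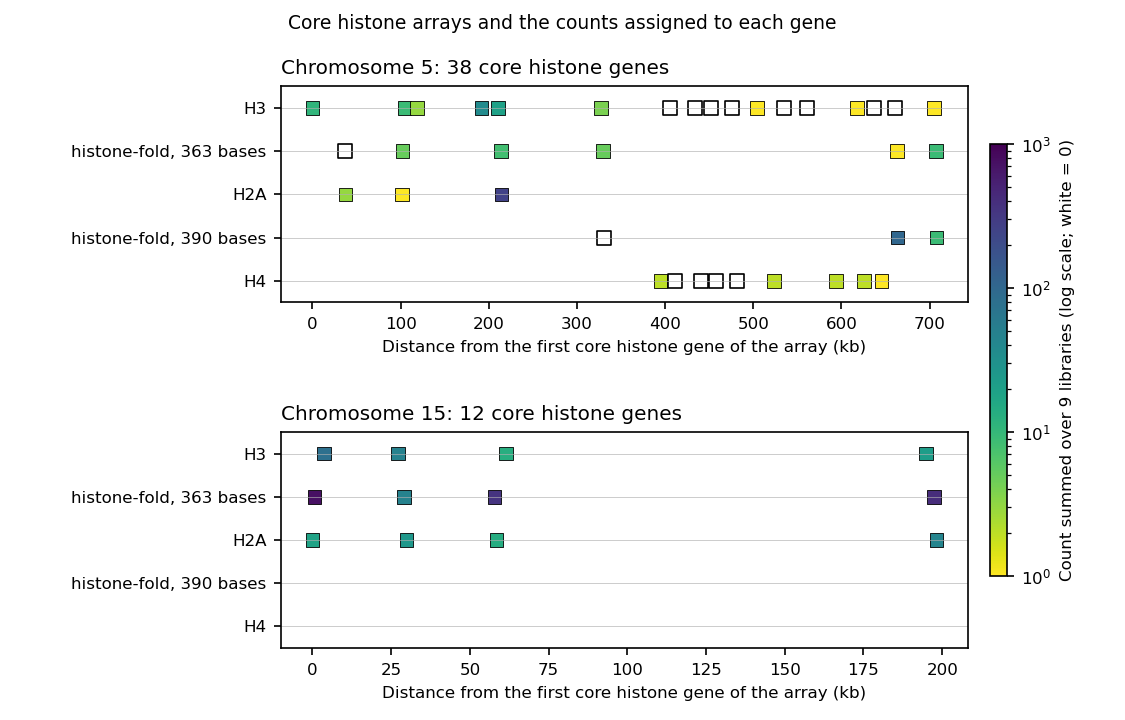
Positions of the 38 and 12 core histone genes in the arrays on chromosomes 5 and 15, as distance in kb from the first core histone gene of each array, by kind of gene. Colour gives the count summed over 9 libraries on a log scale, and white squares mark the 14 genes at 0, all of which lie on chromosome 5.

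The low counts did not extend to most other genes of the same stretches. Inside the chromosome 5 array lie 100 genes that are not core histones, 90 of them without a description, with a median of 976 counts, and 80.0% of them passed the filter on low counts, against 5.26% of the histone genes. In the chromosome 15 array, 27 such genes had a median of 2259 counts, and 85.2% passed the filter, against 25.0% of the histone genes. Fewer than 100 counts were found for 23 of these 100 genes on chromosome 5 and for 4 of the 27 on chromosome 15. The rest of chromosome 5 had a median of 1792 counts, with 89.9% passing, so the other genes of that array lay somewhat lower. The rest of chromosome 15 had a median of 1343 counts, with 84.2% passing.

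**Figure D2:**
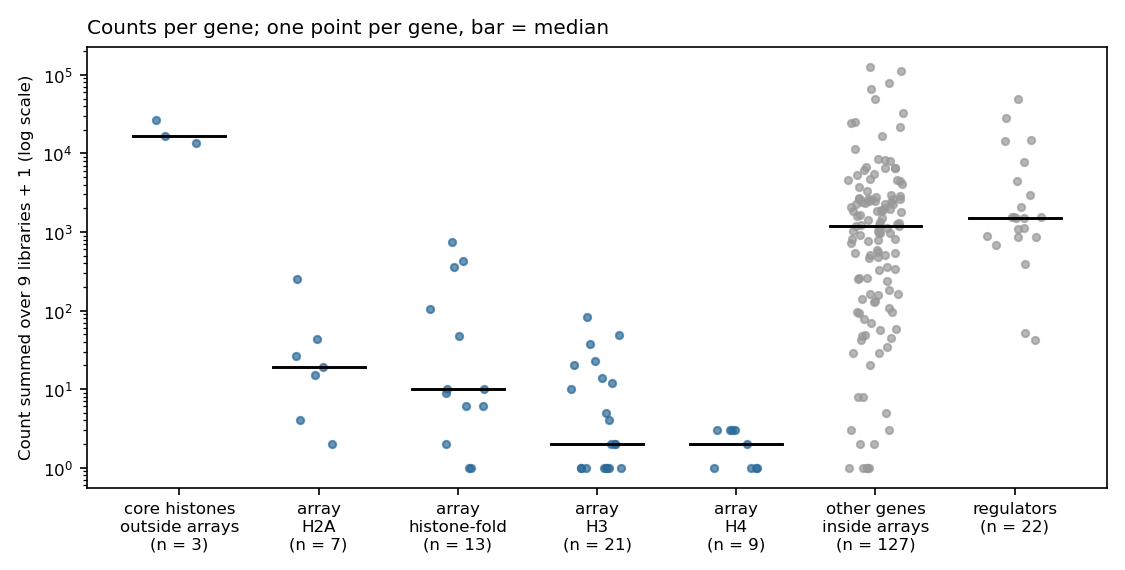
Count per gene summed over 9 libraries, plus 1, on a log scale, with each point a gene and each bar a median. The array H4 genes lie at 0 to 2 counts and the 3 core histones outside the arrays at 13545 to 26402, while the 127 other genes inside the arrays spread over the same range as the regulators and beyond it.

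The arrays are regular only in part, and gaps between neighbouring core histones reach 112555 bases on chromosome 5 and 132989 on chromosome 15. All 10 histone-fold genes of 363 bases lie beside a gene of 390 or 393 bases described as H2A or histone-fold, with 267 to 311 bases between them (median 278). On chromosome 5, 8 H3 genes are followed along the chromosome by an H4 gene as the next core histone, at 5894 to 32662 bases, and in 6 of these cases exactly 1 other gene lies between. In the arrays, H3 genes have a coding length of 411 bases, H4 genes 282, and H2A genes 390 on chromosome 5 and 393 on chromosome 15. The annotated span equals the coding length, so that no intron is annotated, in 41 of 50 array genes (82.0%), in 0 of the 3 core histones outside the arrays, and in 9.38% of all genes. The 3 genes outside the arrays have 609 to 933 bases beyond their coding length.

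Several features of the measurement bear on these low counts, and their shares were not measured. Poly(A) selection would remove histone mRNAs without a tail, and the sources used here do not say whether array transcripts of this alga carry one. Reads that match several copies equally may have been dropped or split in counting. A04112 shares its product match and its coding length of 411 bases with the 21 array H3 genes, so its counts may include reads of theirs or the reverse. Low transcription, missing tails and shared reads cannot be told apart from these files.

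Against this background, levels were compared between groups for the members with enough counts, in one edgeR quasi-likelihood fit over all 9 libraries with Benjamini-Hochberg adjustment over all 11140 genes tested. The filter kept 8 of 53 core histones (15.1%) and 20 of 22 regulators (90.9%), against 88.4% of all genes. A call means an adjusted p under 0.05. Levels below are CPM, counts scaled by library size with TMM factors, and are compared only between groups of the same gene.

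At 20 mg/L against Control, 11 of 28 tested members were called (7 rose, 4 fell), while 51.0% of all genes tested were called. At 50 mg/L against Control, 12 were called (7 rose, 5 fell), against 39.6% of all genes. Between 50 and 20 mg/L, 18 were called (10 rose, 8 fell), against 70.0% of all genes (35.3% rose, 34.7% fell). The 3 comparisons share their groups in pairs and are not independent. Regulators taken alone were called in 40.0%, 40.0% and 70.0% of cases in the same order, with median log2 fold changes of 0.11, 0.22 and -0.22, where those of all genes were -0.03, 0.03 and 0.03. These shares lie near or below those of all genes, and the account that follows is of single genes. Without Control 1 and Cd50 1, the counts of called members were 15, 15 and 24 of 29 tested, while 66.1%, 49.0% and 77.8% of all genes were called. The balance of rises and falls depends on scaling: rises made up 46.7%, 44.9% and 50.4% of all calls with TMM, but 36.6%, 70.9% and 70.6% when library size alone set the scale, and 39.7%, 62.9% and 64.5% with upper quartile factors. Library size alone moved the median log2 fold change of all genes to -0.16, 0.26 and 0.39.

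The 3 well-counted core histones each behaved differently. A04112 (histone H3) was at 168, 130 and 137 CPM in Control 1 to 3, at 198, 190 and 219 in Cd20 and at 138, 112 and 112 in Cd50. All Cd20 libraries lay above all others, and Control and Cd50 overlapped. The gene rose at 20 mg/L (log2 fold change 0.48, SE 0.12, edgeR adjusted p 0.00751) and was lower at 50 than at 20 mg/L (-0.75, SE 0.12, adjusted p 0.000311). Against Control at 50 mg/L the difference was -0.27 (edgeR adjusted p 0.102), and it was called without Cd50 1 (adjusted p 0.0163), without both Cd50 1 and Control 1 (0.0398), and with the replicate number as a block in only the 6 libraries compared (0.011).

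A07570 (Histone H3.2) stood at 159, 135 and 149 CPM in Control, at 124, 114 and 132 in Cd20, and at 112, 103 and 103 in Cd50. The groups did not overlap and followed the order Control, Cd20, Cd50 from high to low. It fell at 50 mg/L against Control (log2 fold change -0.48, SE 0.10, edgeR adjusted p 0.00276), which held under every alternative run. Its fall at 20 mg/L was small (-0.26, SE 0.10, edgeR adjusted p 0.0428) and was not called when any 1 of Control 1, Control 3, Cd20 1, Cd20 2, Cd20 3, Cd50 2 or Cd50 3 was left out (adjusted p 0.0544 to 0.171). It was lost in 13 of 22 alternatives, among them DESeq2 (adjusted p 0.0835), DESeq2 size factors (0.0685), no filter on low counts (0.065) and removal of the trend on length (0.309). The difference of -0.22 between 50 and 20 mg/L (edgeR adjusted p 0.0698) was called without Cd50 1 (0.0329) and without both Control 1 and Cd50 1 (0.0124).

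With TMM scaling A01055 (the H2A F/Z gene), of the variant class that marks promoters, was the steadiest of the 3. It was at 209 to 248 CPM in Control, 261 to 277 in Cd20 and 238 to 252 in Cd50. Its rise at 20 mg/L (log2 fold change 0.25, SE 0.09, edgeR adjusted p 0.0394) was not called when any 1 of Control 2, Control 3, Cd20 1, Cd20 2 or Cd20 3 was left out (0.0741 to 0.15), nor with library size alone as the scale (0.194). At 50 mg/L against Control it was 0.11 (edgeR adjusted p 0.373) with TMM. There it was called as a rise with library size alone (0.34, edgeR adjusted p 0.00404), with upper quartile factors (0.27, 0.0133) and by limma on log2(FPKM + 1) (0.34, 0.0026). Between 50 and 20 mg/L it was -0.14 (edgeR adjusted p 0.181) with TMM but 0.22 (edgeR adjusted p 0.0256) when library size alone set the scale, so no direction is given.

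Among the 50 array genes, 5 passed the filter. A08509 passed only through Cd50, where it is high, so that a difference had to appear for it to be tested. Its values are therefore given as a description with no test, although the counts of called members above include it. A08416 reached the minimum level in enough Control and Cd20 libraries to pass without Cd50, and its tests are given. At 20 mg/L 0 of the 5 array genes were called by edgeR and 0 had an unadjusted p under 0.05. DESeq2 called 0 and limma on log2(FPKM + 1) called 2, where A02916 and A08509 were lower.

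A08416 (histone H2A, chromosome 5, 4302557 to 4302946) had 24, 17 and 10 counts in Control, 15, 11 and 6 in Cd20, and 51, 61 and 59 in Cd50. In CPM this was 0.83 to 1.65 in Control, 0.62 to 1.45 in Cd20 and 4.47 to 4.63 in Cd50, with every Cd50 library above every other. The fitted level was 3.46-fold that of Control (log2 fold change 1.79, SE 0.29, edgeR adjusted p 0.000518). It was 4.45-fold that of Cd20 (2.16, SE 0.31, adjusted p 0.000143). Both were called under every alternative run, though on few counts. At 20 mg/L against Control the change was -0.37 (edgeR adjusted p 0.407).

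A08509 (histone-fold-containing protein, chromosome 5, 4752107 to 4752496) had 7, 9 and 9 counts in Control, 4, 4 and 4 in Cd20, and 23, 21 and 21 in Cd50. The fitted level was 2.65-fold that of Control and 4.46-fold that of Cd20, and again all Cd50 libraries lay above all others.

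The nearest genes give further context. A08415, the histone-fold gene 277 bases from A08416, had 8 counts in all, and A08508, 267 bases from A08509, had 1, too few in both cases for a comparison. On the other side, A08417, a gene without description 1702 bases from A08416, rose between 20 and 50 mg/L (log2 fold change 1.64, edgeR adjusted p 0.000155) and at 50 mg/L against Control (0.73, adjusted p 0.0185). A08511, 566 bases from A08509 and described as a hypothetical protein, rose by 1.23 between 20 and 50 mg/L (edgeR adjusted p 0.000154), but was at -0.01 against Control at 50 mg/L (adjusted p 0.981). At 20 mg/L against Control both neighbours fell, A08417 by -0.90 (edgeR adjusted p 0.0101) and A08511 by -1.24 (adjusted p 0.000209). The sources used here do not say how strand was treated in counting, and the part of neighbouring transcripts in these counts was not tested.

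The 3 chromosome 15 histone-fold genes differed among themselves. A02916 was at 2.75, 3.56 and 2.83 CPM in Control, at 2.60, 2.09 and 2.39 in Cd20 and at 4.49, 4.47 and 4.32 in Cd50. It was higher at 50 than at 20 mg/L (log2 fold change 0.91, SE 0.21, edgeR adjusted p 0.00226). Its rise over Control (0.54, SE 0.20, adjusted p 0.0462) was not called when any 1 library other than Control 2 was left out (adjusted p 0.0522 to 0.138), nor without both Control 1 and Cd50 1 (0.112). With the replicate number as a block its adjusted p was 0.0547. A02902 (5.06 to 10.1 CPM) and A02943 (2.198 to 5.52 CPM) were not called in these fits. For A02943 the log2 fold change of -0.49 between 20 and 50 mg/L (edgeR adjusted p 0.138) was called without Cd20 2 (0.0454), without Cd50 1 (0.0408) and without both Control 1 and Cd50 1 (0.0244). The summed level of the 45 array genes below the filter was 3.81 to 4.34 CPM in Control, 4.27 to 5.98 in Cd20 and 3.07 to 4.94 in Cd50, and the groups overlapped.

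A03967 (chromosome 1, 8740561 to 8740971) is described by the bare word histone and was counted with the regulators for want of a class. It has the 411 bases of the array H3 genes and no annotated intron. It had 2, 3 and 9 counts in Control, 2, 1 and 0 in Cd20 and 8, 11 and 14 in Cd50, too few for the filter. The authors' deposited table of 50 against 20 mg/L lists it with a log2 fold change of 3.17 and an adjusted p of 0.00586. Cd50 lay above Cd20 in every library, while Control 3 overlapped with Cd50.

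Nhp6 of yeast is a small HMG-box protein that bends DNA and loosens nucleosomes. The gene matched to it, A06902 (Non-histone chromosomal protein 6, chromosome 3, 6127527 to 6128807), was at 107, 115 and 106 CPM in Control, at 115, 113 and 108 in Cd20 and at 168, 177 and 184 in Cd50. The first 2 groups overlapped, and all Cd50 libraries were higher. It rose at 50 mg/L against Control (log2 fold change 0.69, SE 0.09, edgeR adjusted p 0.000101) and against Cd20 (0.66, SE 0.09, adjusted p 0.000102), both called under every alternative run. Its change at 20 mg/L was 0.03 (adjusted p 0.782). By FPKM it was the most abundant regulator, ranked 388 of all genes.

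**Figure D3:**
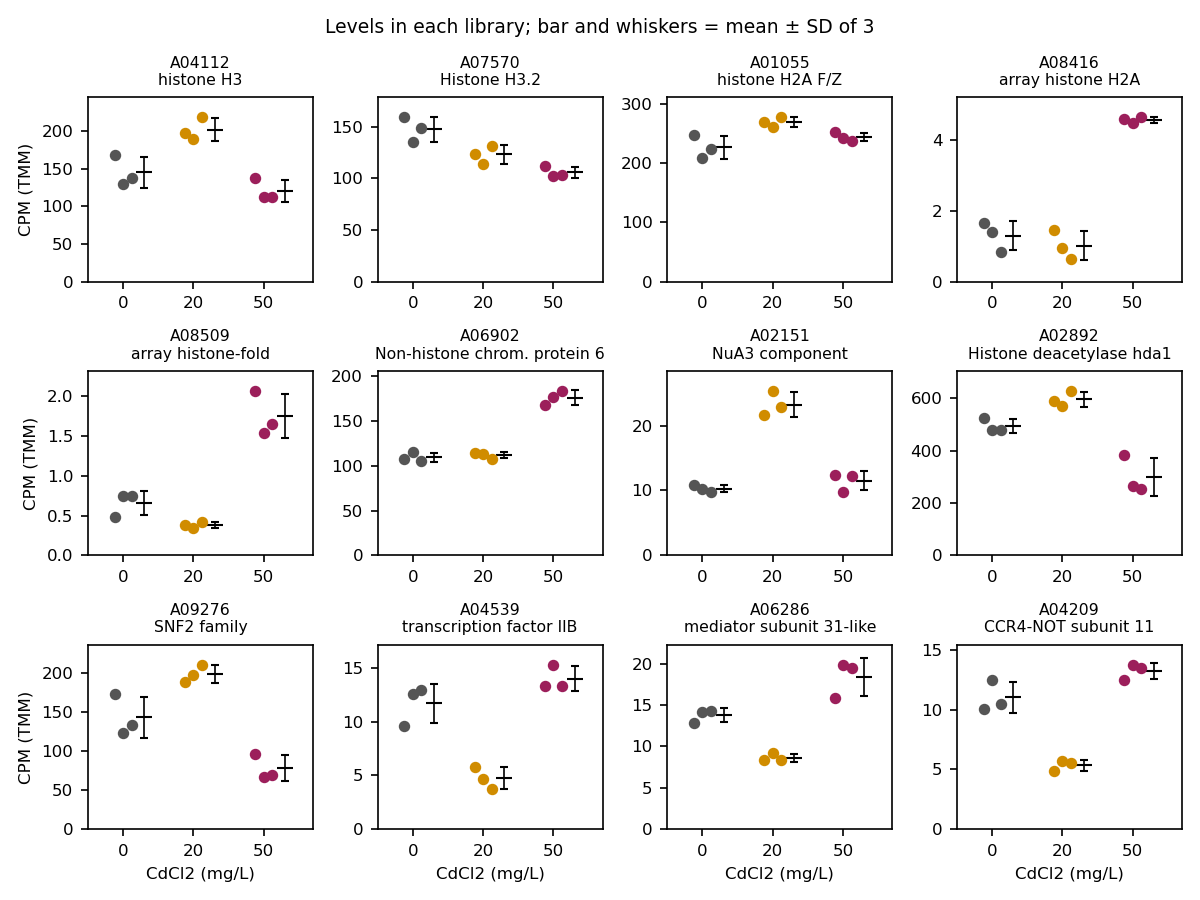
CPM (TMM scaling, axes from 0) of 12 members in each library at 0, 20 and 50 mg/L CdCl2, with the mean and SD of 3 libraries beside the points. A06902, A08416 and A08509 are high at 50 mg/L alone, A02151 is high at 20 mg/L alone, and A04539 and A04209 are low at 20 mg/L alone.

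Of 5 histone modification genes tested, 2 rose in Cd20 against Control (40.0%, beside a share of 23.8% over the whole table). In Cd50 against Control 1 fell (20.0%, beside 21.8%). In the remaining comparison 3 were lower at 50 than at 20 mg/L (60.0%, where 34.7% of all genes were called downward). A02151, described as a putative component of NuA3 histone acetyltransferase, a complex of yeast that acetylates histone H3, was at 10.8, 10.2 and 9.75 CPM in Control, 21.6, 25.4 and 22.8 in Cd20, and 12.4, 9.81 and 12.3 in Cd50. Only the Cd20 libraries were high, and Control and Cd50 overlapped. It rose 2.27-fold at 20 mg/L (log2 fold change 1.18, SE 0.14, edgeR adjusted p 4.73e-05) and differed by -1.02 (SE 0.14, adjusted p 0.000107) between 20 and 50 mg/L.

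The deacetylase genes, whose enzymes take acetyl groups off histones, did not move as one. A02892 (Histone deacetylase hda1, partial) was the most abundant of them by FPKM, ranked 619 of all genes, and stood at 523, 477 and 480 CPM in Control, at 587, 570 and 628 in Cd20 and at 382, 265 and 252 in Cd50. The groups did not overlap. It fell 1.65-fold at 50 mg/L (log2 fold change -0.72, SE 0.14, edgeR adjusted p 0.00186), and at 20 mg/L its change of 0.27 was not called (adjusted p 0.122), but was called without Cd50 1 (0.00851) or without both Control 1 and Cd50 1 (0.00072). A08060 (histone deacetylase) rose at 20 mg/L from 67.1 ± 13.5 to 95.3 ± 5.90 CPM (SD, n = 3; log2 fold change 0.51, edgeR adjusted p 0.0154). That call was lost without Control 2 (0.064) or Control 3 (0.0584).

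At 50 mg/L A08060 was at 57.5 ± 9.26 CPM, a difference of -0.22 from Control (adjusted p 0.254) that was called without Cd50 1 (edgeR adjusted p 0.0467), and of -0.73 from Cd20 (adjusted p 0.0012). A10331 (histone deacetylase 2) was at 12.6 to 16.1 CPM in all libraries, and A03910 (SET domain, the fold of many histone methyltransferases) at 22.1 to 30.3. With TMM scaling A10331 was never called, and A03910 only when the trend on length was removed. Between 50 and 20 mg/L A03910 was then at -0.31 (edgeR adjusted p 0.0487), and at -0.32 with a replicate block as well (0.042). A02640 (histone deacetylase complex protein) had 41 counts in all and was not tested.

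The 3 SNF2-family genes all rose at 20 mg/L, where 23.8% of all genes rose, although A03674 was not called with library size alone as the scale (edgeR adjusted p 0.0506). A08130 was at 14.7, 10.4 and 14.3 CPM in Control, 22.1, 28.8 and 25.6 in Cd20 and 22.7, 20.7 and 18.3 in Cd50. Both cadmium groups lay above Control. It rose at 20 mg/L (log2 fold change 0.96, SE 0.16, edgeR adjusted p 0.000652) and at 50 mg/L (0.65, SE 0.16, adjusted p 0.00867). Between 50 and 20 mg/L it was -0.31 (edgeR adjusted p 0.101), called without both Control 1 and Cd50 1 (0.022).

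A09276 was at 174, 124 and 133 CPM in Control, 188, 198 and 211 in Cd20 and 97.0, 66.9 and 70.0 in Cd50. It rose at 20 mg/L (log2 fold change 0.47, SE 0.16, edgeR adjusted p 0.0255) and fell at 50 mg/L (-0.88, SE 0.16, adjusted p 0.00108), and the groups did not overlap. Between 20 and 50 mg/L the change was -1.35 (SE 0.16, adjusted p 5.78e-05). The rise at 20 mg/L was not called when any 1 of Control 2, Control 3, Cd20 1, Cd20 2 or Cd20 3 was left out (edgeR adjusted p 0.0605 to 0.0996).

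A03674 was at 231 to 312 CPM in Control, 312 to 356 in Cd20 and 181 to 231 in Cd50. Its rise at 20 mg/L (log2 fold change 0.39, edgeR adjusted p 0.0276) was likewise not called when any 1 of Control 2, Control 3, Cd20 1, Cd20 2 or Cd20 3 was left out (0.0502 to 0.118), and it was lower at 50 than at 20 mg/L (-0.72, adjusted p 0.000618). At 50 mg/L against Control it was -0.32 (adjusted p 0.073), and it was called without Control 2 (0.0448), without Cd50 1 (0.0187), without both Control 1 and Cd50 1 (0.0425), and with the replicate number as a block in only these 6 libraries (0.00484).

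Of 4 tested genes in the class of general transcription machinery, 1 fell at 20 mg/L against Control (25.0%, where 27.2% of all genes fell). The TFIIB and CCR4-NOT genes lie outside that class by the words of their descriptions and are described beside it. A04539 (putative transcription factor IIB, the factor that links the promoter complex to RNA polymerase II) was at 9.63, 12.6 and 12.9 CPM in Control, 5.78, 4.62 and 3.75 in Cd20, and 13.3, 15.3 and 13.4 in Cd50. It fell 2.47-fold at 20 mg/L (log2 fold change -1.30, SE 0.19, edgeR adjusted p 0.00023), was 2.96-fold higher at 50 than at 20 mg/L (1.56, SE 0.19, adjusted p 6.71e-05), and differed from Control by 0.26 at 50 mg/L (adjusted p 0.25). Only the Cd20 libraries were low.

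A04209 (CCR4-NOT transcription complex subunit 11, of the complex that shortens poly(A) tails) was at 10.1, 12.5 and 10.5 CPM in Control, 4.82, 5.67 and 5.52 in Cd20, and 12.5, 13.8 and 13.5 in Cd50. It fell 2.06-fold at 20 mg/L (log2 fold change -1.04, SE 0.16, edgeR adjusted p 0.000268) and was higher at 50 than at 20 mg/L (1.31, SE 0.16, adjusted p 5.94e-05). Here too the low libraries were those of Cd20 alone, while Control and Cd50 overlapped.

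A06286 (mediator of RNA polymerase II transcription subunit 31) was at 12.8, 14.2 and 14.3 CPM in Control, 8.39, 9.15 and 8.33 in Cd20, and 15.8, 19.9 and 19.6 in Cd50. The 3 groups did not overlap. It fell at 20 mg/L (log2 fold change -0.67, SE 0.14, edgeR adjusted p 0.00249) and rose at 50 mg/L (0.42, SE 0.14, adjusted p 0.0265). The rise was not called without Control 1, Control 3, Cd50 2 or Cd50 3 (edgeR adjusted p 0.0604 to 0.0969).

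A03600 (a TFIID subunit 13 match) was at 13.7 ± 1.79, 11.1 ± 0.728 and 17.3 ± 2.31 CPM (SD, n = 3) in Control, Cd20 and Cd50 and was higher at 50 than at 20 mg/L (log2 fold change 0.64, edgeR adjusted p 0.00277). Against Control at 50 mg/L it was 0.34 (adjusted p 0.0867), and it was called without Control 2 (0.0476), without Cd50 1 (0.0282), without both Control 1 and Cd50 1 (0.0176), and with a replicate block in only these 6 libraries (0.0468). A00348 (a TAF10 subunit of TFIID) had a log2 fold change of 0.33 at 20 mg/L (adjusted p 0.055), which was called without Control 1 (0.04), without Cd50 1 (0.0473) or without both (0.02). Between 50 and 20 mg/L it was -0.28 (edgeR adjusted p 0.0792), called without both (0.0376). A03667 (SM-like, of a family that binds RNA) was at 6.47 to 9.66 CPM and was not called in a comparison with TMM scaling.

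**Figure D4:**
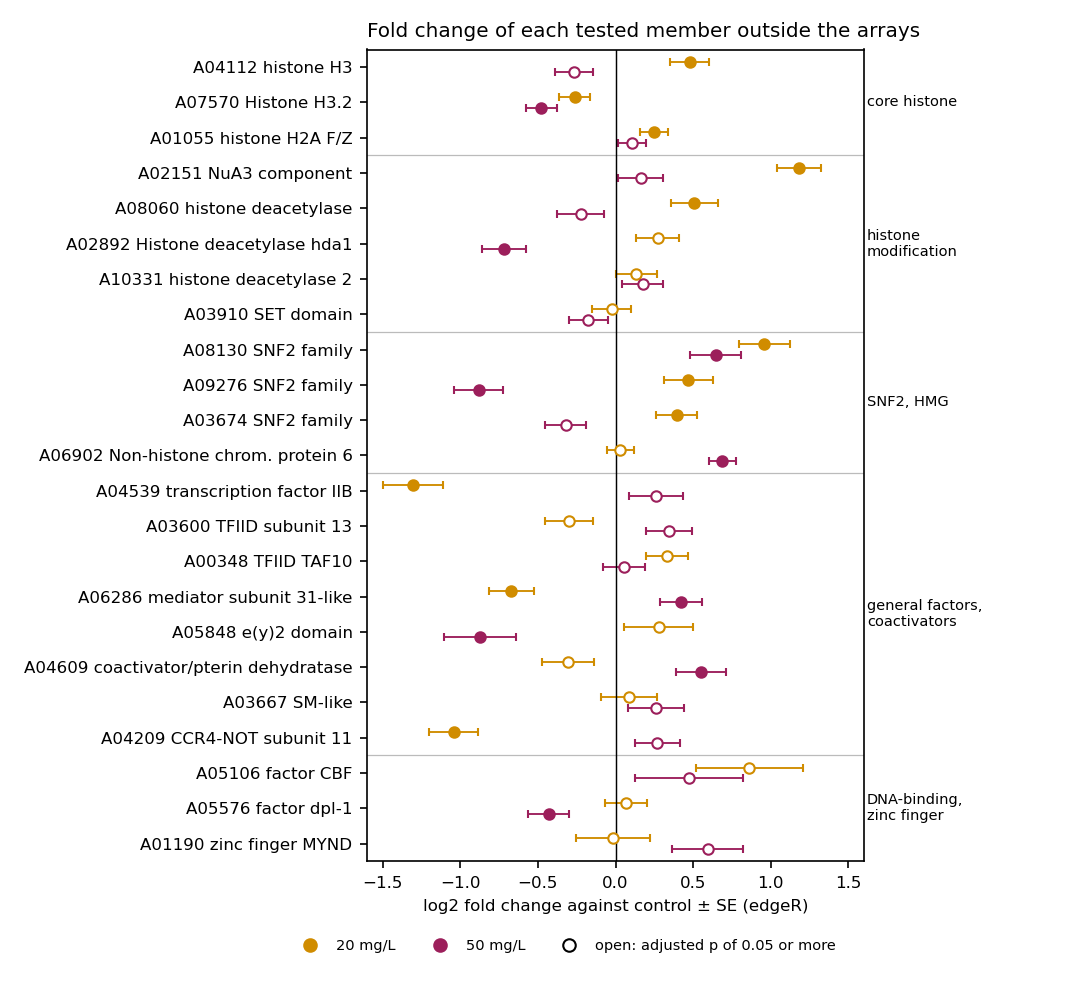
Log2 fold change against Control with its SE at 20 and 50 mg/L CdCl2 for the 23 tested members outside the arrays, by role, with filled points at an edgeR adjusted p under 0.05. A04539, A04209 and A06286 lie left of 0 at 20 mg/L and right of it at 50 mg/L, and A09276 lies the other way round.

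Coactivators, DNA-binding factors and the zinc finger match went in both directions. A05848 (transcription factor e(y)2-domain, a family that in Drosophila links transcription to mRNA export) was at 11.7, 7.21 and 7.58 CPM in Control, 10.0, 12.0 and 10.2 in Cd20, and 6.29, 4.25 and 4.08 in Cd50, so that Cd50 lay below both other groups. It fell at 50 mg/L against Control (log2 fold change -0.87, SE 0.23, edgeR adjusted p 0.0113) and was lower than in Cd20 by -1.15 (SE 0.23, adjusted p 0.00103). The first of these calls was lost without Control 1 (0.0518), Cd50 2 (0.0536) or Cd50 3 (0.0568). Its change of 0.28 at 20 mg/L (edgeR adjusted p 0.307) became 0.56 without Control 1 (adjusted p 0.0353) or without both Control 1 and Cd50 1 (0.00685).

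A04609 (transcriptional coactivator/pterin dehydratase) rose at 50 mg/L from 7.32 ± 0.789 to 10.8 ± 0.922 CPM (SD, n = 3; log2 fold change 0.55, edgeR adjusted p 0.0173), a call lost without Control 3 (0.08) or Cd50 3 (0.063). A05576 (Transcription factor dpl-1, named for the partner of E2F in the cell cycle of the worm) fell from 44.9 ± 5.85 to 33.3 ± 4.01 CPM at 50 mg/L (-0.43, adjusted p 0.0232). This call was lost without Control 1, Control 3, Cd50 2 or Cd50 3 (edgeR adjusted p 0.0726 to 0.119), and with library size alone as the scale (0.189).

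A05106 (transcription factor CBF, a family that binds CCAAT boxes) was at 2.07 to 3.37 CPM in Control, 4.15 to 5.93 in Cd20 and 2.196 to 6.02 in Cd50. Its log2 fold change of 0.86 (SE 0.35) at 20 mg/L was not called (edgeR adjusted p 0.0543), and was called without Control 1 (0.0291), without Cd50 1 (0.0104), without Cd50 2 (0.0303), without both Control 1 and Cd50 1 (0.00115) and with the replicate number as a block (0.0247). Between 50 and 20 mg/L it was -0.39 (adjusted p 0.312), and -0.89 without Cd50 1 (edgeR adjusted p 0.012). A01190 (Zinc finger MYND domain-containing protein 10) was chosen by the words zinc finger alone, and whether it acts on DNA was not studied. It was at 4.16 to 6.46 CPM in Control and Cd20 and at 6.02, 9.15 and 9.26 in Cd50. It was higher at 50 than at 20 mg/L (log2 fold change 0.61, edgeR adjusted p 0.0339), a call lost without Cd20 2, Cd20 3, Cd50 2 or Cd50 3 (0.0778 to 0.127). Against Control at 50 mg/L it was 0.59 (edgeR adjusted p 0.0573), called without Cd50 1 (0.0112), without both Control 1 and Cd50 1 (0.00385), and with a replicate block in only these 6 libraries (0.0238).

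The direction of change in these data moved with the level of a gene, and this touches most results above. Between 50 and 20 mg/L, the median log2 fold change was 0.61 over the 2251 genes under 5 CPM, 0.36 over the 3292 genes at 5 to 20 CPM, -0.21 over the 3666 at 20 to 100 and -0.51 over the 1575 at 100 to 500. At 20 mg/L against Control the order was opposite, from -0.34 under 5 CPM to 0.12 at 100 to 500, and at 50 mg/L against Control it ran from 0.25 to -0.33. Members at low level that rose between 20 and 50 mg/L (A04539, A04209, A06286, A04609, A03600) and members at high level that fell (A04112, A02892, A09276, A03674) thus went the way of genes of like level, and the part of this trend in their values was not tested.

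Some members went against it. A06902, at 133 CPM on average, rose by 0.66 where genes at 100 to 500 CPM had a median of -0.51, a difference of 1.16. A02151, at 15.0 CPM, was lower by -1.02 and A05848, at 8.15 CPM, by -1.15, where genes at 5 to 20 CPM had a median of 0.36. At 20 mg/L against Control, A08130 (19.7 CPM) and A02151 rose by 0.96 and 1.18 in a range whose median was -0.18. A04539 went the way of its range but farther, by -1.13 from the median at 20 mg/L and by 1.21 between 20 and 50 mg/L. These differences are descriptions and carry no test.

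**Figure D5:**
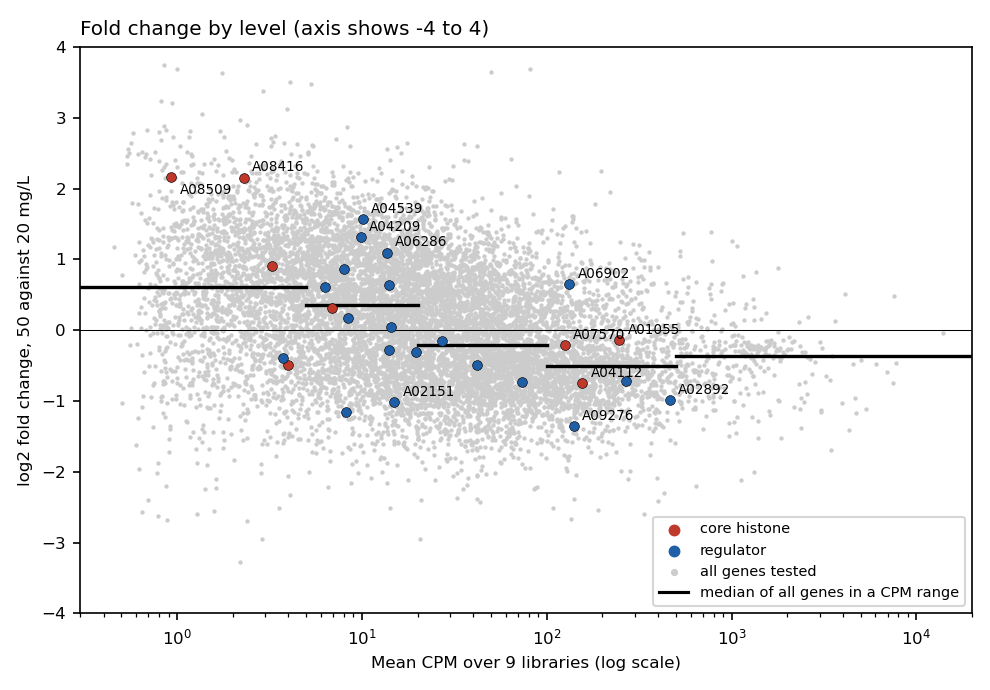
Log2 fold change at 50 against 20 mg/L CdCl2 by mean CPM over 9 libraries (log axis) for all 11140 genes tested (grey), core histones (red) and regulators (blue), with the axis limited to -4 to 4. Black bars give the median of all genes in 5 ranges of CPM, from 0.61 under 5 CPM to -0.51 at 100 to 500 CPM, and A06902 lies above and A02151 below the bar of its range.

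Genes of the processes served by these proteins were read from companion lists built from product words. In animals most core histone genes, though not those of replacement variants, are read during DNA synthesis. All 18 genes of DNA replication were tested. In Cd20 against Control 3 rose, 7 fell and 8 were not called (55.6% called, against 51.0% of all genes). At 50 mg/L 5 rose, 5 fell and 8 were not called (55.6%, against 39.6%). Between 20 and 50 mg/L 9 rose, 5 fell and 4 were not called (77.8%, against 70.0%), with a median log2 fold change of 0.62.

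The 5 falls between 20 and 50 mg/L held all 4 MCM genes other than mcm9, which encode the helicase that opens replication origins. A08347 (MCM2/3/5 family) went from 236 CPM in Control to 303 in Cd20 and 113 in Cd50 (log2 fold change -1.43 between 20 and 50 mg/L, edgeR adjusted p 1.52e-05), and A07504, another of the family, from 519 to 442 and 197 (-1.17, adjusted p 0.000497). Genes of the replication factor C clamp loader did the reverse: A02430 (subunit 4) went from 13.5 to 5.85 and 19.5 CPM (1.74, adjusted p 0.000111) and A07498 (subunit 2) from 8.40 to 5.55 and 16.3 (1.56, adjusted p 6.81e-05). By CPM these MCM genes fall in the range of 100 to 500 and these RFC genes in that of 5 to 20, and each went the way of its range.

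The general factors named above recruit RNA polymerase II, while the companion list holds genes of RNA polymerases of any kind. All 12 genes whose descriptions name one were tested. Among them is A10481, described as the RNA polymerase III-inhibiting protein maf1 and so not a subunit. The calls were 4 rises and 1 fall at 20 mg/L (41.7% called, against 51.0% of all genes). They were 1 rise and 1 fall at 50 mg/L (16.7%, against 39.6%), and 3 rises and 3 falls between 20 and 50 mg/L (50.0%, against 70.0%). A07811 (core subunit ret1 of RNA polymerase III) rose from 66.4 to 122 CPM at 20 mg/L (log2 fold change 0.88, edgeR adjusted p 0.000355), and A09438 (subunit rpa2 of RNA polymerase I) from 40.3 to 74.0 CPM (0.88, adjusted p 0.000967). Genes described as RNA polymerase II went both ways. A00970 (second largest subunit of RNA polymerase II) rose at 20 mg/L (0.29, adjusted p 0.0239) and at 50 mg/L (0.37, adjusted p 0.00895). A03016 (Rna polymerase II) was lower at 20 mg/L by -0.58 (edgeR adjusted p 0.0279).

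The authors' deposited tables, which list genes under their own threshold, held 12 members for Cd20 against Control, 10 for Cd50 against Control and 19 for Cd50 against Cd20. Of these, 10, 10 and 18 were also called by edgeR here, all with the same sign.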

How the data were processed

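Messenger RNA was measured in 9 libraries (3 groups of 3). Per the submitters' processing notes, the authors used STAR 2.7.10a, StringTie 2.2.1 and DESeq2 1.34.0, without further roles given. The sources used here name neither the counting program, nor its treatment of strand, nor the assembly, which leaves overlapping, antisense and near-identical genes uncertain. Deposited counts are unnormalized whole numbers. The deposited FPKM values matched counts divided by coding length and column total within 1% for 100.0% of values. The authors' comparison tables give, for listed genes only, a log2 fold change with its p-value and adjusted p-value and, per the file headers, group means of counts (normalized signal), which were not analysed here.

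The counts of all 9 libraries entered one quasi-likelihood fit of edgeR 4.0.16 (R 4.3.3) with TMM factors and the group as sole term, after filterByExpr kept 11140 genes and removed 1465. The minimum was 0.859 CPM in at least 3 libraries, beside a minimum total. A call was a Benjamini-Hochberg adjusted p under 0.05. SD is given over the libraries of a group. SE was derived from the log2 fold change and the F-test of the fit, in which all groups share one estimate of the spread. The test was checked on simulated counts with known changes. Alternatives were other scalings, DESeq2 1.42.0, limma 3.58.1 on log2(FPKM + 1) and log2(FPKM + 0.1), other filters, left-out libraries and a replicate block. A block within 6 libraries and removal of the trend on coding length were chosen after seeing the data.

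Members and lists were chosen with earlier results of these data known. Roles were given by product words, by which TFIIB counts among the sequence-specific regulators, while the text describes it with the general factors. Named were the core histones (those with few counts by kind and number), the 3 members of lowest adjusted p per role and comparison, and the 5 largest rises and falls at 10 CPM or more without overlap. Others were named after their values were seen, and so were all companion genes and array neighbours. No sequence is printed.

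Replicate numbers are shared between groups. Deviations of same-numbered libraries correlated at 0.594, 0.449 and 0.186 for Cd50 against Control, which counts as paired by a limit of 0.1 in every pair, but not in the other comparisons.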

Additional observations from a re-analysis of the deposited data

Results flagged for a closer look

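A pair of genes was called on opposite sides of Control at the 2 concentrations, and the difference between the concentrations was itself called. The mediator subunit 31 gene A06286 fell at 20 mg/L and rose at 50 mg/L, and differed by a log2 fold change of 1.10 between 50 and 20 mg/L (edgeR adjusted p 8.77e-05). The SNF2-family gene A09276 rose at 20 mg/L and fell at 50 mg/L, and differed by -1.35 (edgeR adjusted p 5.78e-05). In each case 1 of the 2 calls against Control was lost when single libraries were left out, as given above, while the difference between 50 and 20 mg/L was called in every alternative.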

How the results depend on the processing

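Of 41 calls of single members, 29 held in every alternative (6 of 11 at 20 mg/L against Control, 7 of 12 at 50 mg/L against Control and 16 of 18 between 50 and 20 mg/L). They include those of A08509, which the filter shaped. With 1 library left out, called members numbered 6 to 14, 7 to 16 and 17 to 22 in that order, and called core histones 1 to 3, 3 to 4 and 4 to 6. In the comparisons with Cd50 these counts include A08509. The share of all genes called in these runs moved as well, from 38.2% to 56.8%, 27.3% to 49.8% and 60.3% to 73.5%. With limma on log2(FPKM + 1) and on log2(FPKM + 0.1), 20 members were called at 50 mg/L against Control in place of 12 (48.2% and 47.1% of all genes were called, against 39.6%), and with the length trend removed together with a replicate block, 7 core histones in place of 4 between 50 and 20 mg/L (71.8% of all genes, against 70.0%). The direction of A01055 between 50 and 20 mg/L reversed to 0.22 with library size alone, with limma on log2(FPKM + 1) and with limma on log2(FPKM + 0.1). FPKM carries the scaling of library size, and the cause of the other changes was not tested. The replicate block gave 12, 11 and 18 called members and 3, 3 and 4 core histones, beside 54.5%, 43.3% and 71.3% of all genes. It ended the call of A02916 at 50 mg/L and made one for A05106 at 20 mg/L. With the block in only the 6 libraries of Cd50 and Control, 16 members and 5 core histones were called, beside 54.5% of all genes; it made calls for A04112, A03674, A01190 and A03600. Depth limits the array genes most: 45 of 50 had fewer than 100 counts in all 9 libraries.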
